A study of Mus musculus with 6 samples.

Results

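The enzymes described here are the cytochromes P450 (Cyp), aldehyde dehydrogenases (Aldh), glutathione transferases (Gst), sulfotransferases (Sult) and glucuronosyltransferases (Ugt), which oxidise and conjugate drugs, pollutants, steroids, retinoids and lipids. Members were chosen by gene symbol: Cyp, Ugt, Sult or Aldh followed by a digit, or Gst followed by a letter and a digit, without Cyp51 and without names that mark pseudogenes. This gave 186 of the 49671 genes in the table, of which 100 were Cyp, 22 Ugt, 22 Gst, 21 Sult and 21 Aldh. RNA was sequenced from basal keratinocytes of the ear epidermis of castrated male, female and intact male mice of the outbred CD1 stock. Each of the 3 groups had 2 libraries. No other allele, treatment or age is given in the labels, nor is the age at castration or the time since. Cells were sorted as alive, integrin alpha 6 positive and CD34 negative, a gate meant to keep interfollicular basal cells and to drop those of the follicle bulge. Each library came from 100000 sorted cells pooled from 2 littermates, so a p-value measures the spread between pools. Whether any libraries share a litter is not given, so effects of litter and group cannot be told apart here.

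These families work in sequence. In the first phase, P450s insert oxygen into a lipophilic substrate with electrons from the reductase Por, and aldehyde dehydrogenases oxidise aldehydes to acids. In the second phase, transferases attach glutathione, sulfate or glucuronic acid, and transporters export the conjugate. In skin the same families also have endogenous substrates: Cyp26 enzymes and Aldh1a enzymes break down and make retinoic acid, Cyp4f enzymes hydroxylate fatty acids of the barrier lipids, and Sult2b1 makes cholesterol sulfate. The aryl hydrocarbon receptor (Ahr), the nuclear receptor CAR (Nr1i3) and the stress factor NRF2 (Nfe2l2) are known to switch on many of them.

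The libraries held 8412487 to 9648154 reads, and values are CPM, counts relative to library size after scaling between libraries. At this depth 1 read corresponds to 0.102 to 0.128 CPM. A member with no read could still lie below 0.307 to 0.385 CPM, the value of 3 reads, counting error alone considered. The 7 basal keratinocyte markers (Krt5, Krt14 and others) summed to 45379 and 45164 CPM in castrated males, 41210 and 43396 in females and 42394 and 48668 in males, and none of them was called between groups. At an unadjusted p below 0.05 there were 3 of the 7 in females over males, Krt15 (-0.71, adjusted p = 0.136), Col17a1 (-0.57, adjusted p = 0.109) and Itgb4 (-0.45, adjusted p = 0.0705, limma), each lower in females without overlap. Over all genes 3834 of 15413 had such a p in that comparison. In castrated males over females there were 4 of the 7, beside 3332 of all genes (limma). Sebocyte markers summed to 903 and 912 CPM in castrated males, 1168 and 1012 in females and 1277 and 955 in males. Bulge and hair follicle markers summed to 140 and 172 CPM in castrated males, 224 and 209 in females and 279 and 242 in males. The largest part was Krt79, also in the sebocyte list, at 67.4 and 90.2, 134 and 134, and 173 and 154 CPM in the same order. The bulge marker Cd34 reached at most 3.05 CPM in any library. T cell markers summed to 74.0 and 151, 14.5 and 70.4, and 92.7 and 101 CPM in castrated males, females and males. Of these sums Thy1 alone held 68.2 and 144, 8.90 and 60.4, and 80.5 and 97.0 CPM. Cd3e, Cd3g, Trdc and Trac each reached at most 4.47 CPM in any library. Melanocyte markers summed to 49.8 and 84.6, 33.8 and 44.1, and 49.9 and 58.6 CPM in the same order of groups. Fibroblast markers reached at most 26.9 CPM in any library and those of macrophages and neutrophils at most 40.5 CPM. Of all these lists, Mitf (melanocyte, adjusted p = 0.0269) fell and Cxcr2 (neutrophil, adjusted p = 0.0359, limma) rose in females over males. In castrated males over females, Krt79 (-0.78, adjusted p = 0.0482) and the sebocyte marker Mgst1 (-1.21, adjusted p = 0.0481, limma) were lower. The part of these lists in the results was not tested. Markers of Langerhans and dendritic cells summed to 405 and 467 CPM in castrated males, 1082 and 2348 in females and 377 and 428 in males. Of these 8 markers the class II genes H2-Aa, H2-Ab1 and Cd74 rose in females, none of the 8 was at 0 in any library, and Cd207, the langerin gene, stood at 6.82 and 5.01 CPM in castrated males, 5.32 and 6.92 in females and 6.6 and 8.46 in males.

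Most members were silent or nearly so in these cells. No read was found for 62 of the 186 members. Another 49 had reads but too few to be tested, 13 of them with 1 or 2 reads in all 6 libraries. The remaining 75 passed the filter on low values and were tested: 31 Cyp, 17 Gst, 16 Aldh, 9 Ugt and 2 Sult. Among them, Cyp2f2 passed through the female libraries alone and Cyp46a1 through the castrated male libraries alone. The aromatase gene Cyp19a1, the vitamin D hydroxylase gene Cyp24a1, Cyp26a1, Cyp26c1, Cyp1a2, Aldh1a2, Aldh8a1 and the oestrogen sulfotransferase gene Sult1e1 had 0 reads in every library, which allows up to 0.385 CPM in the shallowest.

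Per length of exon, glutathione transferases of the mu class led. The mean over all libraries, in CPM per kilobase, was 216 for Gstm1 and 186 for Gstm2, followed by 114 for Gsto1, an omega class enzyme. Cyp4b1, a P450 of fatty acids and lung toxicants, reached 85.1 CPM per kilobase, and Aldh3a1, an aldehyde dehydrogenase abundant in cornea, 82.1. Next came Cyp2b10, the mouse P450 best known as a CAR target in liver, at 57.3 CPM per kilobase, then the Ugt1a locus, whose Ugt1a1 row stood at 54.4, and the mitochondrial acetaldehyde dehydrogenase gene Aldh2 at 49.1. Cyp2j6 and Cyp2w1 stood at 33.6 and 29.8 CPM per kilobase, and Sult5a1, the most abundant sulfotransferase gene, at 15.4.

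Summed over all its members, the Cyp family was lowest in females. Its sum was 887 and 891 CPM in castrated males, 656 and 541 CPM in females, and 971 and 996 CPM in males, with no overlap between the groups. The Ugt sum, with the Ugt1a locus counted once, ran the other way, at 104 and 126 CPM in castrated males, 137 and 185 CPM in females, and 90.0 and 87.8 CPM in males. The Aldh sum was 1250 and 1255 CPM in castrated males, 1295 and 1268 CPM in females, and 1278 and 1392 CPM in males. Gst sums were 1036 and 1201 CPM in castrated males, 1196 and 1201 CPM in females, and 1154 and 1205 CPM in males. The Sult sum was 91.7 and 95.5 CPM in castrated males, 72.3 and 46.4 CPM in females, and 78.1 and 107 CPM in males. Females thus lay below both other groups in the Sult sum too. The sums are dominated by a few abundant genes and were not tested. Since these are bulk samples, fewer cells that express a gene and less RNA per cell cannot be told apart.

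**Figure D1:**
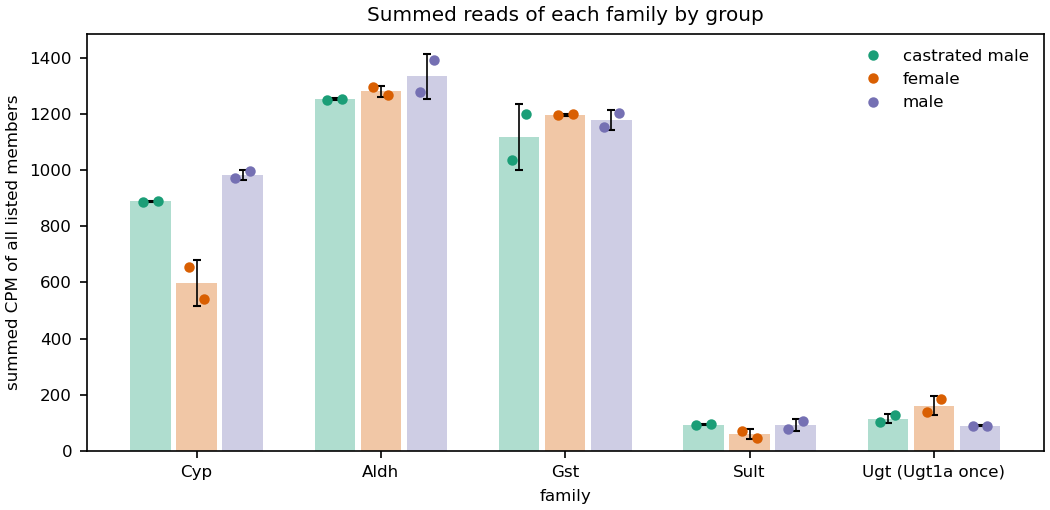
Summed CPM of all listed members of each family, by group (bars: mean of 2 libraries; error bars: SD; points: libraries). Females lie lowest for Cyp, at 656 and 541 CPM, and for Sult, at 72.3 and 46.4 CPM. They lie highest for Ugt with the Ugt1a locus counted once, at 137 and 185 CPM.

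The first comparison asks what removal of the testes is associated with in males. No member was called between castrated and intact males, as 0 of 75 reached an adjusted p below 0.05 (limma, Benjamini-Hochberg over 15413 genes). Over all genes 6 were called, 0.0389% of those tested, with 0.013% called higher and 0.026% called lower. At an unadjusted p below 0.05 there were 18 members, or 10 of 67 with the Ugt1a locus counted once, beside 914 of all genes, and limma with voom weights also called 0 members. The median log2 fold change of the 75 members was -0.07, beside 0.00 over all genes tested.

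Some members had separated values that the test did not call. Cyp4f17 stood at 6.37 and 5.35 CPM in castrated males against 10.5 and 15.9 CPM in males, a log2 fold change of -1.08 ± 0.27 (SE, adjusted p = 0.517, limma). Its neighbour Cyp4f13 had 12.9 and 16.5 CPM in castrated males and 33.6 and 22.9 CPM in males, a log2 fold change of -0.91 ± 0.28 (adjusted p = 0.681, limma). In both genes the castrated males lay below the intact males without overlap. Gstm5 had 41.1 and 47.2 CPM in castrated males and 84.9 and 62.6 CPM in males (log2 fold change -0.72 ± 0.17, adjusted p = 0.428, limma). Sult2b1, which makes the cholesterol sulfate of the skin barrier, had 13.8 and 15.8 CPM in castrated males and 9.37 and 7.87 CPM in males (0.75 ± 0.20, adjusted p = 0.593, limma). Gstp1, the pi class glutathione transferase gene, had 37 and 49.1 CPM in castrated males against 111 and 53.8 CPM in males (-0.85 ± 0.30, adjusted p = 0.76, limma). It was the 1 member called when male replicate 2 was left out (-1.37, adjusted p = 0.0395, limma).

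The second comparison is that of the sexes, and here calls were made mainly among the Cyp genes and at the Ugt1a locus. Between females and males 25 of 75 tested members were called (33.3%), beside 940 of 15413 genes, or 6.1%, in the whole table. Of these, 14 were higher in females (3.7% of all genes were called higher) and 11 were lower (2.39% of all genes were called lower). The 9 Ugt calls are readings of the same exons, so with the Ugt1a locus counted once the figures are 17 of 67 (25.4%), 6 higher and 11 lower. Without Cyp2f2 and Cyp46a1, each of which reached the test through a single group, they are 24 of 73, or 16 of 65 with Ugt1a once. By family, 2 Cyp members were higher and 9 lower of 31, 1 Aldh member was higher and 1 lower of 16, 2 Gst members were higher and 1 lower of 17, and 0 of 2 Sult members were called. The median log2 fold change was -0.44 for Cyp, -0.17 for Aldh, -0.19 for Gst and 0.87 for Ugt, beside -0.01 over all genes.

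The number of calls rests on single libraries. It was 2 without female replicate 2, 25 without female replicate 1, of which 20 were called with all libraries, 7 and 6 without male replicate 1 and 2, and 5 and 4 without castrated male replicate 1 and 2, which enter only through the shared spread. With no filter on low values it was 2, without the intensity trend 4, and with only the female and male libraries in the fit 4. Cyp2b10 and Cyp7b1 were the 2 that remained without female replicate 2, and they were called under each of the 17 alternatives run. Female replicate 2 was also the library with the largest sum of Langerhans and dendritic cell markers (2348 CPM) and of suprabasal keratinocyte markers (1553 CPM). The suprabasal sum was 1164 and 1260 CPM in castrated males, 1195 and 1553 in females and 917 and 705 in males, and 3 of its 7 genes (Krt1, Flg, Krtdap) rose in females. The part of either marker list in the calls was not tested.

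**Figure D2:**
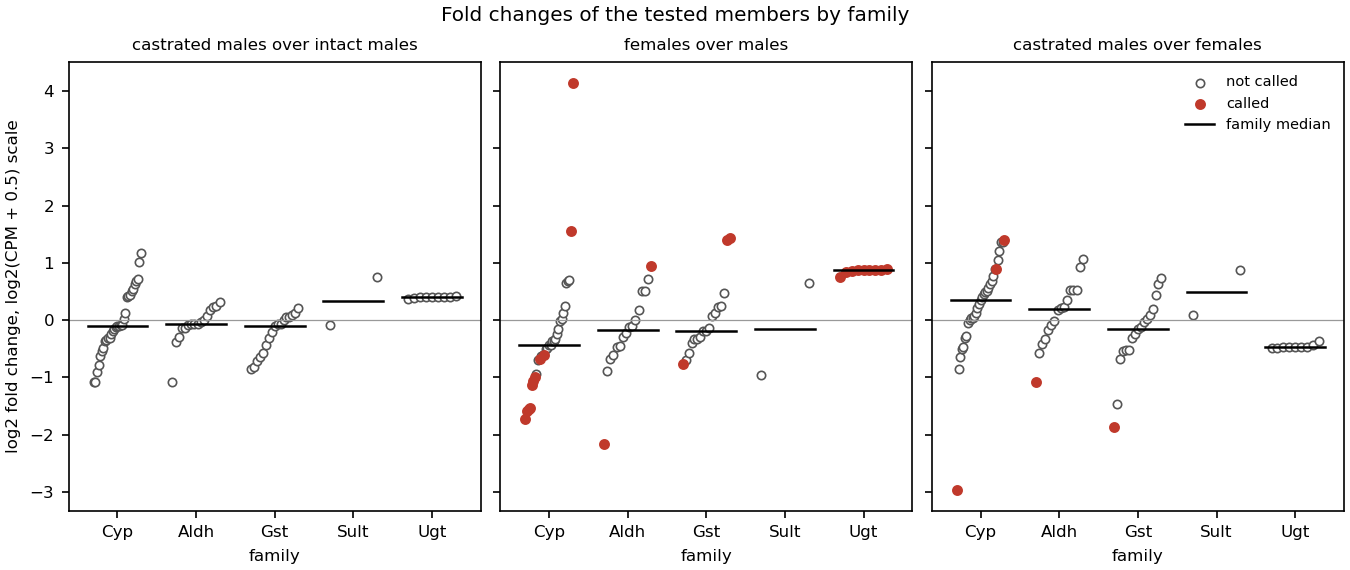
Log2 fold change of each of the 75 tested members, by family, in the 3 comparisons (open circles: not called; filled: called; black line: family median). Calls are 0 of 75 for castrated over intact males, 25 for females over males and 5 for castrated males over females; in the middle panel Cyp lies mostly below 0 and Ugt above it.

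**Figure D3:**
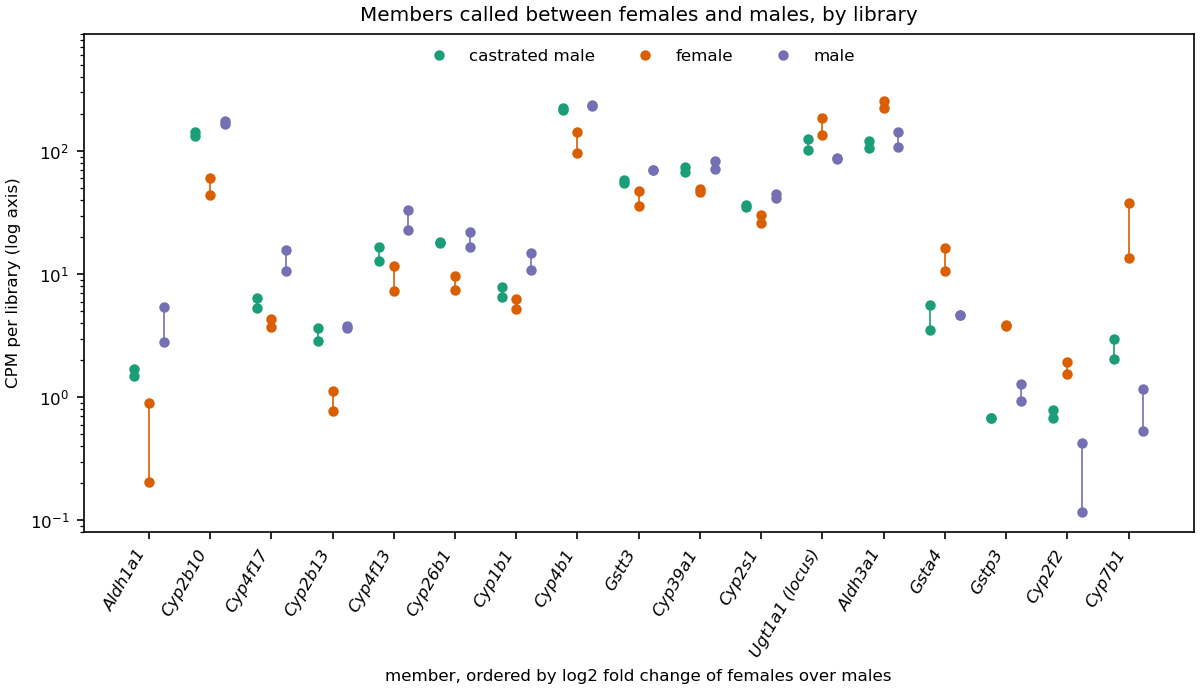
CPM of each library (log axis) for the 17 loci called between females and males, ordered by fold change. Cyp7b1, at the right, stood at 13.6 and 38.2 CPM in females against 0.533 and 1.17 CPM in males, and castrated males, at 2.05 and 2.96 CPM, lay between them.

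Of the tested P450 genes, Cyp2b10 fell furthest in females on the log2 scale. The gene (ENSMUSG00000030483, chr7:25897620-25926624 of GRCm38, plus strand) stood at 133 and 144 CPM in castrated males, 60.8 and 44.2 CPM in females, and 177 and 167 CPM in males. Females were thus lowest, males highest and castrated males just below males, without overlap. The log2 fold change of females over males was -1.72 ± 0.16 (SE, adjusted p = 0.00166, limma), and it ran from -1.95 to -1.49 when any 1 library was left out. Its paralog Cyp2b13 (chr7:26061497-26096197, plus strand) was much weaker, at 2.84 and 3.64 CPM in castrated males, 1.12 and 0.769 CPM in females, and 3.83 and 3.64 CPM in males. It also fell in females (-1.56 ± 0.31, adjusted p = 0.0275, limma). In both genes the female libraries lay below all 4 libraries of males, and for Cyp2b13 the difference between castrated males and females was not called (1.37 ± 0.31, adjusted p = 0.0657, limma). How reads were divided between such paralogs is not stated in the sources used here.

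The stretches before the start sites of these paralogs are shown because both genes fell. They are the 250 bases upstream of the RefSeq start, GRCm38.p6, with the core GCGTG of an AHR response element, on either strand, in capitals. Cyp2b10 is chr7:25897408-25897657 on the plus strand and Cyp2b13 is chr7:26061245-26061494 on the plus strand.
Cyp2b10: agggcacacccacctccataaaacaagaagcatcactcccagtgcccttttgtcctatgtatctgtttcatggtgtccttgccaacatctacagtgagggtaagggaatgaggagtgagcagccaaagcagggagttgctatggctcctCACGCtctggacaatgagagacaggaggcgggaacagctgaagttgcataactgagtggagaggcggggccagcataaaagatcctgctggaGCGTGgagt
Cyp2b13: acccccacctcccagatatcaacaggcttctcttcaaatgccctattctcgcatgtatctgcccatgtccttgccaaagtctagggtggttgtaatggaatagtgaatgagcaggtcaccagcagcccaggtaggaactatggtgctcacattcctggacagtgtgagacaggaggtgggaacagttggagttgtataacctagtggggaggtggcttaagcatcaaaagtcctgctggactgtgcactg
The pair could be aligned over 240 bases, of which 182 were identical (75.8%), with 20 gap bases. Cyp2b10 holds 2 of the cores and Cyp2b13 holds 0. The Cyp2b10 gene interval given above begins before the RefSeq start, so the core nearest that start lies inside the interval. Such a short core is common: 28.2% of the 32851 mouse promoters of that length in the RefSeq table hold it, and 34.3% of the 70 promoters of tested members do. The antioxidant response element core TGACNNNGC, on either strand, is absent from both windows and was found in 10.2% of all promoters and 5.71% of those of tested members. RefSeq promoters were matched for 149 of the 186 members.

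A short list of 4 aryl hydrocarbon receptor targets did not move together, which says nothing of targets outside it. Of the 3 tested genes of that list, Aldh3a1 rose in females, Cyp1b1 fell and Cyp1a1 was not called. Aldh3a1 (ENSMUSG00000019102, chr11:61207537-61218421, plus strand), whose enzyme clears aldehydes from lipid peroxidation, had 107 and 120 CPM in castrated males, 223 and 256 CPM in females, and 143 and 107 CPM in males. The female libraries lay above all 4 others, and the log2 fold change of females over males was 0.94 ± 0.16 (adjusted p = 0.018, limma). Cyp1b1, an oxidase of polycyclic hydrocarbons and oestradiol, had 7.85 and 6.49 CPM in castrated males, 6.34 and 5.26 CPM in females, and 14.8 and 10.8 CPM in males. It fell in females (-1.07 ± 0.25, adjusted p = 0.0437, limma), a call that was lost in every fit that left out a library, with adjusted p from 0.0507 to 0.289. Cyp1a1, the classical Ahr target, had few reads, at 2.05 and 2.39 CPM in castrated males, 1.02 and 1.15 CPM in females, and 0.213 and 2.00 CPM in males, so the groups of females and males overlapped (0.25 ± 0.54, adjusted p = 0.812, limma). Ahr itself stood at 61.1 and 61.1 CPM in castrated males, 55.6 and 58.8 CPM in females, and 55.8 and 65.9 CPM in males (females over males -0.08 ± 0.14, adjusted p = 0.747, limma).

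The promoters of the 2 Cyp1 genes are shown with the same core in capitals. Cyp1b1 is chr17:79715062-79715311, printed on the minus strand from which it is transcribed, and Cyp1a1 is chr9:57697363-57697612 on the plus strand. The Cyp1a1 window lies inside its annotated gene, chr9:57687928-57703824, which begins before the RefSeq start.
Cyp1b1: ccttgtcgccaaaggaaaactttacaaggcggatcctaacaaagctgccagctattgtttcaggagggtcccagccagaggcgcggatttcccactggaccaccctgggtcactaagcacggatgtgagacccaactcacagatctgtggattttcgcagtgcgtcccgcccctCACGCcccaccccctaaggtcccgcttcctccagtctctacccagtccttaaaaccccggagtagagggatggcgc
Cyp1a1: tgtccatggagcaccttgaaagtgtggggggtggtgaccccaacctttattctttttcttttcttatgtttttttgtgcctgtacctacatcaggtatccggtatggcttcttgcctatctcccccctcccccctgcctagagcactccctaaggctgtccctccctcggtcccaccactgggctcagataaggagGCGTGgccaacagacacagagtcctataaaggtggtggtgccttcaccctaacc
Each holds 1 core in the window. Sequence outside the window was not searched, and a relation between the cores and the calls was not tested.

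Of the P450s that hydroxylate fatty acids, 3 fell in females and others were not called, some of them with higher values in females. Cyp4b1 (ENSMUSG00000028713, chr4:115624725-115647723, minus strand) had 217 and 223 CPM in castrated males, 144 and 96.5 CPM in females, and 232 and 239 CPM in males, and fell in females (-0.99 ± 0.18, adjusted p = 0.0208, limma). On chromosome 17, Cyp4f17 had 6.37 and 5.35 CPM in castrated males, 4.29 and 3.72 CPM in females, and 10.5 and 15.9 CPM in males. The nearby Cyp4f13 had 12.9 and 16.5 CPM in castrated males, 11.8 and 7.31 CPM in females, and 33.6 and 22.9 CPM in males. Both Cyp4f genes fell in females, with log2 fold changes of -1.58 ± 0.27 for Cyp4f17 (adjusted p = 0.019) and -1.53 ± 0.28 for Cyp4f13 (adjusted p = 0.0221, limma), and in both the castrated males lay between females and males. Other Cyp4f genes of the cluster were not called. Cyp4f16 had 12.9 and 13.8 CPM in castrated males, 12.9 and 13.7 CPM in females, and 11.6 and 12.7 CPM in males. Cyp4f39, the mouse counterpart of the human acylceramide enzyme CYP4F22, had 7.96 and 12.6 CPM in castrated males, 10.0 and 15 CPM in females, and 7.46 and 7.52 CPM in males (females over males 0.68 ± 0.28, adjusted p = 0.185, limma), females lying above males without overlap. The list of arachidonate and omega hydroxylases, which holds Cyp4b1 and Cyp4f13 but not Cyp4f17, had 8 tested members, of which 2 fell and 0 rose, with 3 positive and 5 negative fold changes.

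Epoxygenases of arachidonic acid in that list were not called. Cyp2j6 had 129 and 139 CPM in castrated males, 107 and 88.6 CPM in females, and 137 and 127 CPM in males (females over males -0.43 ± 0.13, adjusted p = 0.0902, limma), and Cyp2j9 gave -0.62 ± 0.18 (adjusted p = 0.0809, limma). Cyp2b19, a mouse epoxygenase of keratinocytes, had 13.3 and 12.1 CPM in castrated males, 10.7 and 14.1 CPM in females, and 9.05 and 6.46 CPM in males (females over males 0.65 ± 0.24, adjusted p = 0.144, limma), again with females above males without overlap. Cyp3a13 and Cyp2w1, among the more abundant P450 genes, varied widely within a group. Cyp2w1 had 58.0 and 62.6 CPM in castrated males, 34.3 and 15.5 CPM in females, and 27.7 and 72.7 CPM in males, and Cyp3a13 had 61.8 and 21.9 CPM in castrated males, 63.8 and 40.8 CPM in females, and 45.2 and 71.6 CPM in males.

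All 3 tested genes of a list of 9 retinoid enzymes among the members fell in females. Outside that list the picture was mixed, as the dehydrogenase gene Adh7 rose and its relative Adh1 fell (values below). Cyp26b1, which degrades retinoic acid, had 18.2 and 18 CPM in castrated males, 7.46 and 9.62 CPM in females, and 21.9 and 16.7 CPM in males (-1.13 ± 0.22, adjusted p = 0.025, limma). Cyp2s1, a P450 of epithelia that also acts on retinoids, had 35.4 and 36.9 CPM in castrated males, 30.1 and 26.2 CPM in females, and 41.4 and 44.5 CPM in males (-0.61 ± 0.15, adjusted p = 0.0483, limma). Aldh1a1, which makes retinoic acid, had few reads, at 1.48 and 1.71 CPM in castrated males, 0.204 and 0.897 CPM in females, and 5.43 and 2.82 CPM in males (-2.16 ± 0.44, adjusted p = 0.0289, limma). Of the alternatives run, 9 of 17 kept the call of Cyp26b1, 6 of 17 that of Cyp2s1 and 8 of 16 that of Aldh1a1. In the main fit a gene for making and a gene for degrading retinoic acid were both lower in females than in intact males. Between castrated males and females neither was called, with adjusted p of 0.204 for Aldh1a1 and 0.0524 for Cyp26b1 (limma). Below the filter, Aldh1a7, a close relative of Aldh1a1, had 1 and 2 reads in castrated males, 1 and 0 in females, and 21 and 9 in males, and Aldh1a3 had 5 and 5 reads in castrated males, 7 and 13 in females, and 3 and 4 in males. Neither was tested.

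Among the enzymes of sterols and steroids, Cyp7b1 gave the largest fold change of any tested member. The gene (ENSMUSG00000039519, chr3:18071950-18243338, minus strand) encodes an oxysterol hydroxylase that also acts on androgen precursors. It had 2.05 and 2.96 CPM in castrated males, 13.6 and 38.2 CPM in females, and 0.533 and 1.17 CPM in males. The lower female library lay above the 4 libraries of males by several fold, while the 2 female libraries themselves differed widely. Cyp7b1 rose in females by a log2 fold change of 4.15 ± 0.47 (SE, adjusted p = 0.00473, limma), and by 3.42 to 4.88 when any 1 library was left out. Cyp39a1, another oxysterol hydroxylase gene, went the opposite way, with 67.2 and 74.7 CPM in castrated males, 49.5 and 46.8 CPM in females, and 71.5 and 83.8 CPM in males (-0.68 ± 0.14, adjusted p = 0.0289, limma). Of 5 tested genes in this list, 1 rose and 1 fell. Sult2b1 had 13.5 and 14.1 CPM in females against 9.37 and 7.87 CPM in males (0.65 ± 0.20, adjusted p = 0.092, limma), and Cyp11b1 and Cyp46a1 had adjusted p of 0.608 and 0.713. Cyp11a1, the enzyme that starts steroid synthesis from cholesterol, had 4 and 6 reads in females and 0 in each of the other 4 libraries, too few to be tested. Cyp17a1 had 6 and 4 reads in castrated males, 9 and 5 in females, and 18 and 2 in males.

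Vitamin D enzymes were scarce and none was called. Cyp27a1, a hydroxylase of sterols and vitamin D, had 8.07 and 7.86 CPM in castrated males, 9.30 and 10.9 CPM in females, and 9.05 and 11.5 CPM in males. The vitamin D hydroxylase gene Cyp2r1 had 1.02 and 1.25 CPM in castrated males, 0.920 and 1.54 CPM in females, and 0.639 and 0.470 CPM in males. Cyp27b1, which makes the active hormone, had 34 reads in all 6 libraries together. Cyp2f2, known from naphthalene metabolism in the mouse lung, had 0.796 and 0.683 CPM in castrated males, 1.94 and 1.54 CPM in females, and 0.426 and 0.117 CPM in males. It passed the filter on low values only through the females, the group where it is high, so its log2 fold change of 1.56 ± 0.39 (adjusted p = 0.0498, limma) at 49 reads in all is given as a description.

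No aldehyde dehydrogenase outside the retinoid and Ahr lists was called. Of 5 tested genes of aldehyde detoxification and 7 of mitochondrial, amino acid and folate metabolism, 0 were called between females and males in limma. An unadjusted p below 0.05 was found for 2 and 5 of them, beside 3834 of all 15413 genes tested. Among the 5 were the folate enzyme genes Aldh1l1 (females over males -0.90 ± 0.26, adjusted p = 0.0753) and Aldh1l2 (0.72 ± 0.24, adjusted p = 0.108), and Aldh1b1 (-0.68 ± 0.29, adjusted p = 0.198, limma). Aldh2 had 252 and 235 CPM in castrated males, 236 and 194 CPM in females, and 298 and 296 CPM in males (females over males -0.47 ± 0.13, adjusted p = 0.0674, limma). Aldh6a1, an enzyme of valine breakdown, had 192 and 192 CPM in castrated males, 158 and 111 CPM in females, and 181 and 223 CPM in males (-0.60 ± 0.18, adjusted p = 0.0818, limma). In Aldh6a1 the females lay below both other groups, and in Aldh2 they lay below the males and overlapped the castrated males. Aldh3a2, the fatty aldehyde dehydrogenase gene, hardly varied, with 37.0 and 38.1 CPM in castrated males, 40.3 and 39.2 CPM in females, and 39.8 and 39.1 CPM in males. Aldh16a1 had 129 and 130 CPM in castrated males, 139 and 154 CPM in females, and 135 and 124 CPM in males, and Aldh4a1, of proline breakdown, 195 and 153, 197 and 156, and 152 and 236 CPM in the same order. Reads of Aldh4a1 are uncertain because 32.5% of its exon bases also belong to another annotated gene on the same strand.

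The most abundant glutathione transferases were not called in any comparison, and 3 others were called between females and males. Gstm1 had 294 and 357 CPM in castrated males, 344 and 300 CPM in females, and 266 and 351 CPM in males, and Gstm2 had 303 and 347 CPM in castrated males, 326 and 337 CPM in females, and 267 and 296 CPM in males. Gsto1 had 191 and 236 CPM in castrated males, 223 and 280 CPM in females, and 213 and 244 CPM in males. In these 3 genes the groups of females and males overlapped, except for Gstm2, where females lay above males. Gsta4, which conjugates the lipid peroxidation product hydroxynonenal, rose in females, with 3.53 and 5.58 CPM in castrated males, 10.6 and 16.4 CPM in females, and 4.69 and 4.70 CPM in males (1.40 ± 0.30, adjusted p = 0.0334, limma). Gstp3 (ENSMUSG00000058216, chr19:4057477-4059569, minus strand), a scarce pi class gene, had 0.682 and 0.683 CPM in castrated males, 3.78 and 3.85 CPM in females, and 1.28 and 0.940 CPM in males, and also rose in females (1.43 ± 0.32, adjusted p = 0.0393, limma). The call of Gstp3 was kept in 6 of 16 alternatives, and its log2 fold change ran from 1.28 to 1.58 when any 1 library was left out. Its neighbours Gstp1 and Gstp2 were not called, with log2 fold changes of -0.33 ± 0.30 and -0.33 ± 0.44. The theta class gene Gstt3 fell, with 57.9 and 54.6 CPM in castrated males, 47.5 and 35.9 CPM in females, and 70.2 and 70.4 CPM in males (-0.76 ± 0.16, adjusted p = 0.0301, limma), although 13.6% of its exon bases are shared with another annotated gene on the same strand. The mu, pi and alpha classes are sets of close paralogs, between which the division of reads is uncertain.

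Glucuronosyltransferase calls come from a single locus. Mouse Ugt1a genes each have their own first exon, which encodes the part that binds the substrate, spliced to a set of 4 exons that all share. In the annotation (GENCODE M21, GRCm38) the 9 genes in the table span chr1:88055388-88220002. The shared exons are the same stretch of the genome in each gene, so the 1311 bases compared are identical by definition. The last 30 bases of the first exon (small letters) are shown with the first 30 bases of the shared second exon (capitals, chr1:88215044-88215073, plus strand), since this join marks where the sequence common to the 9 rows begins. All 60 bases are coding.
Ugt1a1: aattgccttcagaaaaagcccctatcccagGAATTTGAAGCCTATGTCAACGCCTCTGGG
Ugt1a6a: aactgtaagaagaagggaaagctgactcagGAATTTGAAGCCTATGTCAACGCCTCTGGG
Ugt1a6b: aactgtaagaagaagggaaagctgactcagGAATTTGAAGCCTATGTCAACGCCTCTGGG
Ugt1a7c: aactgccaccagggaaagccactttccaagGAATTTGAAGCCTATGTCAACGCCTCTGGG
Ugt1a10: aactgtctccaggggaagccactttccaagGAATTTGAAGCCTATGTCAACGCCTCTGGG
The first-exon sides of Ugt1a6a and Ugt1a6b are the same over these 30 bases, while those of Ugt1a6a and Ugt1a1 have 14 bases in common. The first exons begin at chr1:88055411 for Ugt1a10 and at chr1:88211959 for Ugt1a1, the ends of the row of first exons.

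Read as a whole, the Ugt1a locus rose in females. The row of Ugt1a1 had 103 and 126 CPM in castrated males, 137 and 185 CPM in females, and 88.5 and 87.2 CPM in males, without overlap between the groups. Its log2 fold change was 0.85 ± 0.17 in females over males (adjusted p = 0.0265, limma) and that of the 9 rows ran from 0.75 to 0.89. The call of the Ugt1a1 row was kept in 9 of 17 alternatives. Its log2 fold change ran from 0.63 to 1.07 when any 1 library was left out. The lowest of the 9 rows in a library held 863 and 1044 reads in castrated males, 1261 and 1363 in females, and 758 and 701 in males. The rows of Ugt1a2, Ugt1a5, Ugt1a8, Ugt1a9 and Ugt1a10 exceeded it by at most 16 reads, so nearly all of their reads are also in the other rows and their calls repeat a single measurement. Ugt1a8 is the row with 12 and 16 reads above the lowest in females, against 1 and 2 in castrated males and 0 and 1 in males.

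What a row holds above the lowest row is a lower bound on the reads from exons that are not common to all rows, since the lowest row may hold such reads too. The largest such parts belonged to Ugt1a7c, Ugt1a6a and Ugt1a6b. For Ugt1a7c it was 33.8 and 37.0 CPM in castrated males, 40.4 and 56.2 CPM in females, and 21.3 and 31.6 CPM in males, so females lay above both other groups. For Ugt1a6a it was 37.6 and 36.9 CPM in castrated males, 35 and 38.8 CPM in females, and 24.3 and 35.1 CPM in males, and here females and males overlapped. Ugt1a6b had 14.8 and 19.2 CPM in castrated males, 16.9 and 19.5 CPM in females, and 11 and 12.5 CPM in males. For Ugt1a1 the excess was 4.55 and 6.83 CPM in castrated males, 7.67 and 10.0 CPM in females, and 7.78 and 4.82 CPM in males. These differences were not tested, and they depend on how much sequence a row covers: Ugt1a6a and Ugt1a7c have 4312 and 4219 exon bases in the annotation, against 2224 for Ugt1a1. Outside this locus, Ugt2b1 had 39 reads in all libraries together, 4 Ugt genes had 1 or 2 reads and 8 had none.

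**Figure D4:**
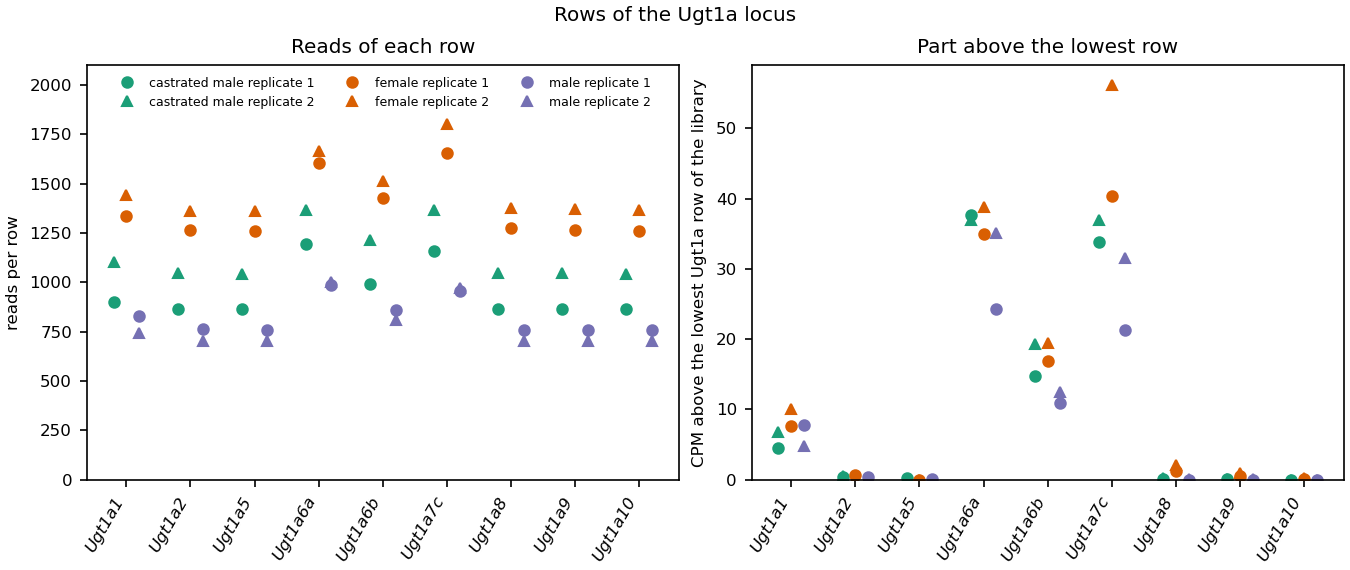
Reads of each of the 9 Ugt1a rows (left) and CPM above the lowest row of the same library (right), by library (circles: replicate 1; triangles: replicate 2). On the left all rows of a library share a floor, 1261 and 1363 reads in females against 758 and 701 in males; on the right Ugt1a6a, Ugt1a6b and Ugt1a7c hold most of what lies above it.

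Sulfotransferases were few. Sult5a1 had 76.2 and 78.2 CPM in castrated males, 57.2 and 30.6 CPM in females, and 67.6 and 98.0 CPM in males (females over males -0.95 ± 0.28, adjusted p = 0.0754, limma). It lay lowest in females without overlap and was not called. Sult4a1, known as a brain sulfotransferase, was below the filter with 8 and 11 reads in females, 1 and 0 in castrated males and 1 and 0 in males. Of the remaining 18 Sult genes, 12 had no read.

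The third comparison sets castrated males against females and shares its female libraries with the second, so its values are not independent of those above. Of 75 tested members 5 were called (6.67%), beside 266 of 15413 genes, or 1.73%. Cyp2b10 and Cyp4b1 were higher in castrated males (0.571% of all genes were called higher), and Cyp7b1, Aldh3a1 and Gstp3 were lower (1.15% of all genes were called lower). The log2 fold changes of castrated males over females were 1.41 ± 0.16 for Cyp2b10 (adjusted p = 0.00543), 0.89 ± 0.18 for Cyp4b1 (adjusted p = 0.0468), -2.98 ± 0.47 for Cyp7b1 (adjusted p = 0.0243), -1.07 ± 0.16 for Aldh3a1 (adjusted p = 0.0191) and -1.87 ± 0.32 for Gstp3 (adjusted p = 0.0333, all limma). Cyp26b1 and Gsta4 missed the threshold, at 1.05 ± 0.22 (adjusted p = 0.0524) and -1.47 ± 0.30 (adjusted p = 0.0517, limma). The Ugt1a1 row had a log2 fold change of -0.48 ± 0.17 (adjusted p = 0.152, limma). Family medians were 0.36 for Cyp, 0.19 for Aldh, -0.16 for Gst and -0.47 for Ugt, beside 0.01 over all genes. The number called was 18 without female replicate 1, or 12 with Ugt1a counted once, 1 without female replicate 2, 8 and 7 without male replicate 1 and 2, and 0 without either castrated male library.

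Partner genes of the same pathways were counted from lists of reductases, cosubstrate enzymes, other transferases, transporters and regulators that are not members. Between females and males 8 of 78 tested partners rose and 3 fell, where 3.7% and 2.39% of all genes did. Between castrated males and females 1 was higher and 5 lower, where 0.571% and 1.15% of all genes were. Between castrated and intact males 0 of 78 were called in limma, with 9 at an unadjusted p below 0.05, beside 914 of 15413 genes. Among the first-phase partners, 3 rose and 2 fell of 29. Adh7, a retinol and ethanol dehydrogenase of epithelia, had 125 and 145 CPM in castrated males, 358 and 494 CPM in females, and 184 and 178 CPM in males (females over males 1.22 ± 0.16, adjusted p = 0.00862, limma). It was also called lower in castrated males than in females (-1.64 ± 0.16, adjusted p = 0.00258, limma). Its relative Adh1 fell, with 66.7 and 72.2 CPM in castrated males, 57.2 and 28.7 CPM in females, and 178 and 94.9 CPM in males (-1.67 ± 0.34, adjusted p = 0.0289, limma). The 2 dehydrogenases thus moved in opposite directions between females and males. Akr1c18, an aldo-keto reductase of progesterone, had 6.26 and 4.90 CPM in castrated males, 83.7 and 114 CPM in females, and 28.9 and 18.4 CPM in males, with castrated males below both other groups (castrated males over females -4.03 ± 0.25, adjusted p = 0.000183; castrated over intact males -1.97 ± 0.25, adjusted p = 0.0527, limma). It rose in females over males (2.06 ± 0.25, adjusted p = 0.00615, limma). Akr1b8 rose in females and Mgll fell, by log2 fold changes of 1.28 ± 0.29 (adjusted p = 0.0379) and -0.68 ± 0.16 (adjusted p = 0.0447, limma).

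Among second-phase partners 4 rose in females and 0 fell of 22. Ugdh, which makes the UDP-glucuronic acid that Ugt enzymes use, had 111 and 124 CPM in castrated males, 152 and 216 CPM in females, and 116 and 91.5 CPM in males (females over males 0.81 ± 0.19, adjusted p = 0.0417, limma). Mgst2, a microsomal glutathione transferase, had 15.1 and 19.1 CPM in castrated males, 35.6 and 44.9 CPM in females, and 16 and 15.4 CPM in males (1.32 ± 0.19, adjusted p = 0.0104, limma). Both were highest in the females, as the Ugt1a rows were. The others that rose were Ptges, the prostaglandin E synthase gene (1.23 ± 0.28, adjusted p = 0.0388), and Ggct of glutathione turnover (1.22 ± 0.30, adjusted p = 0.0495, limma). In castrated males over females, Mgst1, Mgst2 and Ptges were lower and Mgll was higher, with adjusted p of 0.0481, 0.0243, 0.0471 and 0.0407 (limma). Mgst1 is also in the sebocyte marker list.

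Among 12 transporters 1 rose and 1 fell in females. Abcc3, which exports glucuronides, had 30.9 and 33.5 CPM in castrated males, 59.9 and 106 CPM in females, and 27.6 and 19.3 CPM in males (1.77 ± 0.27, adjusted p = 0.0122, limma). Abcc5 fell by 0.59 ± 0.15 (adjusted p = 0.0498, limma). None of 15 tested regulators was called in any comparison. Nfe2l2 had 98.8 and 103 CPM in castrated males, 128 and 147 CPM in females, and 90.8 and 103 CPM in males (females over males 0.51 ± 0.13, adjusted p = 0.055, limma), and its inhibitor Keap1 had -0.04 ± 0.12 (adjusted p = 0.875). Nqo1, a target of NRF2, had 9.21 and 13.9 CPM in castrated males, 19.8 and 35 CPM in females, and 14.7 and 8.58 CPM in males (1.19 ± 0.34, adjusted p = 0.0746, limma). Nr1i3, the gene of CAR, had 20.8 and 25 CPM in castrated males, 31.4 and 43.0 CPM in females, and 20.5 and 25.5 CPM in males (0.67 ± 0.21, adjusted p = 0.0885, limma). Its values lay highest in females, where Cyp2b10 was lowest, and a link between the genes was not tested. Nr1i2, the gene of the related receptor PXR, had 0 reads in every library. Por, which passes electrons to the P450s, had 76.0 and 64.6 CPM in castrated males, 98.6 and 118 CPM in females, and 88.7 and 79.4 CPM in males (0.36 ± 0.15, adjusted p = 0.176, limma). The summed Cyp reads were lowest in females, and a relation to Por was not tested.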

How the data were processed

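Tools named in the submitters' processing notes are HTSeq 0.11.1, STAR 2.7.5a, Picard and FastQC, with GRCm38 and mm10. The annotation, strand setting and scaling are not stated in the sources used here. Each deposited value is a score: reads per gene scaled by the authors to nearly the same total in each library (19999024 to 19999732) and rounded. At least 99.98% of values lay within 0.5 of a multiple of 1 step per library, and dividing by it gave whole reads. Because the deposited columns are scores, no count model was run. CPM used totals scaled by TMM factors (0.927 to 1.03), computed on those reads. Genes with 1.163 CPM in at least 2 libraries and 15 reads in all were tested, 15413 in number, with limma 3.58.1 (R 4.3.3) on log2(CPM + 0.5): 1 mean per group, all 6 libraries, an intensity trend, 3 residual and 5.81 prior degrees of freedom, two-sided Benjamini-Hochberg adjusted p, called below 0.05. This scale understates changes of low genes. The procedure was tested on simulated data. Members and lists were chosen with earlier results of these data known. Named genes are called members, the 5 with most reads per family, measured genes of the role lists, called partner genes and 5 fixed partners; Nr1i3 and Nr1i2 were added after their values were seen. Not every gene so named is described. The second male library has the number 3 in its name and 2 in its title; the title was used. Exon overlap came from GENCODE M21, sequences from GENCODE M21 transcripts and RefSeq.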

Additional observations from a re-analysis of the deposited data

How the results depend on the processing

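Counts of called members, given in the order castrated over intact males, females over males and castrated males over females, were 0, 25 and 5. Median-of-ratios factors, library totals without TMM and pseudocounts of 1 and 0.1 CPM left every count within 1.5 times of these. The castrated over intact male count stayed at 0 under each alternative except 1 without male replicate 2. The counts for females over males and castrated males over females fell to 2 and 1 without a filter on low values, to 4 and 1 without the intensity trend, and were 4 and 8 with only the 4 libraries compared. Castrated males over females gave 3 with a filter at 5 CPM and 2 with voom weights, chosen after seeing the data. Leaving out 1 library gave ranges of 0 to 1, 2 to 25 and 0 to 18, and where a group had 1 library left it was assumed to vary like the others. Deviations of libraries with the same number correlated at -0.153 between males and females, -0.0103 between males and castrated males and 0.194 between females and castrated males. With 2 libraries per group these correlations cannot settle whether the libraries are paired. A replicate block gave 0, 22 and 3 calls, and with the male numbers crossed, chosen after seeing the data, 0, 28 and 7. No called member reversed its direction under any of these alternatives. The causes of these changes were not tested. The 2 planned negative binomial count tests were not run, since the deposited columns are scaled scores. Depth limits members with few reads: 49 of 186 could not be tested and 62 had no read.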
